A study of Mus musculus with 12 samples.

Results

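Radial glia and early astrocyte markers are 10 genes, Sox2, Hes1, Nes, Vim, Gfap, Fabp7, Slc1a3, Aldh1l1, Aqp4 and S100b, chosen by their symbols from the 46078 genes counted in mouse embryonic brain. All 10 had enough reads to be tested in each sex. The question was whether their RNA differed between brains with and without NSD2, a methyltransferase of histone H3 lysine 36. RNA was taken at E15.5 from WT embryos and from Nsd2 KO embryos of the C57BL/6 background, in which CRISPR/Cas9 had removed the whole coding sequence of Nsd2. There were 4 groups, WT male, KO male, WT female and KO female, with 3 libraries in each and 12 in all. The deletion was not restricted to a cell type, so the design does not separate an effect within radial glia from an effect in other cells. The tissue was bulk brain, and fewer cells of a type and less RNA per cell cannot be told apart in it.

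Radial glia are the neural stem cells that line the ventricles of the embryonic brain, and they give rise to neurons and later to astrocytes. They keep contact with the ventricle and the outer surface through long fibres and are held in the stem state in part by Notch signalling. Some of the genes that mark them, such as Fabp7 and Slc1a3, stay on in early astrocytes, whereas others, such as Gfap, Aqp4 and S100b, are mainly known from later astrocytes.

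Levels are given as CPM, the count of a gene scaled to the total count of its library, after TMM normalization between libraries. Library totals ranged from 40398665 to 59304196 counts, and a two-sided exact permutation test between genotypes gave p = 0.4 for males and 0.6 for females, with 0.1 the smallest that 3 against 3 can give. Nsd2 was at 351 to 407 CPM in the 6 WT libraries and at 0.909 to 2.67 CPM in the 6 KO libraries, so the genotype labels held in all 12. The libraries also differed in the genes of the Hox clusters, which are expressed in the hindbrain and spinal cord and not in the forebrain. Hoxa5 was at or above 13.2 CPM in WT male 2, WT male 3, KO male 2, WT female 3, KO female 2 and KO female 3 and under 1 CPM in the other 6, which gave 3 WT and 3 KO libraries on each side. Within each sex the sides held unequal numbers of WT and KO libraries. Males and females were deposited in separate tables, and sex cannot be told apart from the table.

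The radial glia genes were well expressed, Aqp4 was low, and Gfap and S100b had few counts. To compare genes, CPM was divided by the length of the gene's exons in kb. Fabp7 stood highest with 180 ± 29.4 CPM per kb (SD, n = 12), followed by Vim with 92.3 ± 8.28, Sox2 with 44.7 ± 8.06, Nes with 38.9 ± 4.75 and Slc1a3 with 17.3 ± 2.80 CPM per kb. Aldh1l1 had 8.07 ± 1.46 and Hes1 6.06 ± 0.886 CPM per kb. The lowest were Aqp4 with 0.644 ± 0.40, S100b with 0.535 ± 0.55 and Gfap with 0.10 ± 0.0641 CPM per kb (SD, n = 12). The ranges over the 12 libraries overlapped for the neighbours Sox2 and Nes, for Aldh1l1 and Hes1, for Aqp4 and S100b and for S100b and Gfap, and they did not overlap for the other neighbours in this order. Gfap rested on 4 to 60 counts in a library and S100b on 10 to 189 counts, so little of the astrocyte part of the label rested on them. Which cells the RNA of Aldh1l1 came from was not measured.

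**Figure D1:**
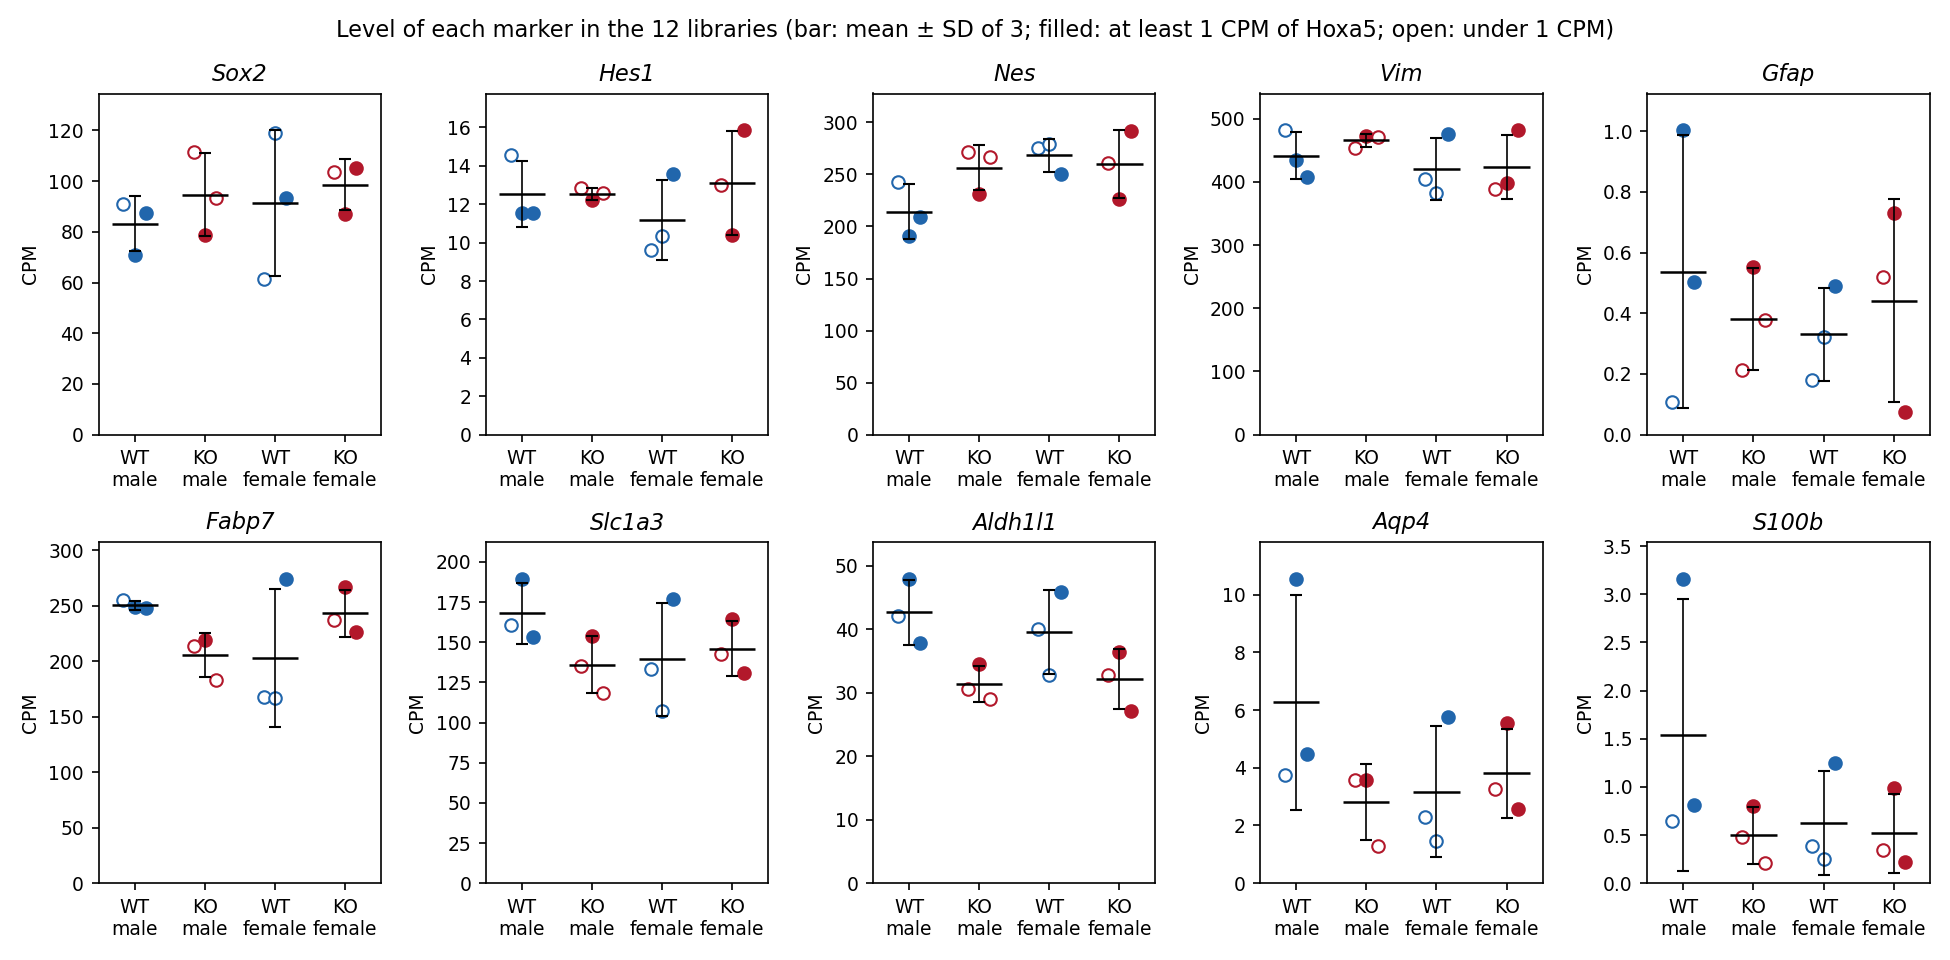
Level of each of the 10 markers in CPM (vertical axis, starting at 0) in the 12 libraries, by group. Points are libraries, filled with at least 1 CPM of Hoxa5 and open with less, and bars are the mean ± SD of 3. Aldh1l1 lay at 29.0 to 34.5 CPM in KO males against 37.9 to 48.0 CPM in WT males, whereas S100b was drawn up in WT males by a single library at 3.16 CPM.

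The promoter sequences of 4 markers are shown because the results turn on them: Aldh1l1 had the smallest p of the 10 genes between genotypes, and Fabp7, Slc1a3 and S100b had the 3 smallest p in the fit against the Hox gene level, in which none passed after adjustment. Each is the part of the 250 bases before the RefSeq start of the gene that no annotated exon of the same gene covers. Exons of other genes were not checked. The sequences are printed 5′ to 3′ on the gene's strand of GRCm38.p6. They lie at chr6:90550543-90550788 on the plus strand (Aldh1l1, inside the span of a longer annotated form of the gene), chr10:57784673-57784880 on the plus strand (Fabp7), chr15:8710808-8711057 on the minus strand (Slc1a3) and chr10:76253586-76253835 on the plus strand (S100b). Capitals mark matches, on either strand, to the CCAAT box (CCAAT), the TATA box (TATAAA), the core of the site of the Notch partner RBPJ (TGGGAA), the STAT site (TTCNNNGAA) and a short NFI site (TTGGCA).
Aldh1l1: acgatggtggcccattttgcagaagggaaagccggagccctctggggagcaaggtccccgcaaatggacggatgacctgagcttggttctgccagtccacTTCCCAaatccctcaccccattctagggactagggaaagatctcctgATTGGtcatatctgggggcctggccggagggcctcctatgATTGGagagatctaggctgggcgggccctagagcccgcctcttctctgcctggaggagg
Fabp7: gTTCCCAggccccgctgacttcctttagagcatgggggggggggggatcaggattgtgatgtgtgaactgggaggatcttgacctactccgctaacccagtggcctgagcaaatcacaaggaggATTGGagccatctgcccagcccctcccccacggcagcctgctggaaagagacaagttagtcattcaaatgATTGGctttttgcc
Slc1a3: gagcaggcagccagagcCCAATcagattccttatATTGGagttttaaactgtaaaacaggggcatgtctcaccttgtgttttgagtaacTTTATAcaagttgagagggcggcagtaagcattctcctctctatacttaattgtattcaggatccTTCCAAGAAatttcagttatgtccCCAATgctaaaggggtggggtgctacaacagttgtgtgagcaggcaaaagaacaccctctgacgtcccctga
S100b: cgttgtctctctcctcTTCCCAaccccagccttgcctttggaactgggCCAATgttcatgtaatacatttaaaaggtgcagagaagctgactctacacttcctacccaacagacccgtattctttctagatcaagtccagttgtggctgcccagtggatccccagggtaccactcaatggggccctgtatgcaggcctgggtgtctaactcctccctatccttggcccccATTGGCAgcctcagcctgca

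Each of these 4 windows held 2 or 3 CCAAT boxes. At least 1 was found in 33.8% of the 32851 promoter windows of 250 bases in the RefSeq table. The share of windows with more than 1 was not counted, so how common 2 or 3 are is not known here. The window of Sox2 also held a CCAAT box, and those of Gfap and Nes did not. In Aldh1l1 the CCAAT boxes began 103 and 63 bases before the start, in Fabp7 126 and 56 bases before it. The RBPJ core, found in 21.6% of all windows, was in those of Aldh1l1, Fabp7 and S100b and also in that of Gfap. The STAT site, found in 7.02% of all windows, was in that of Slc1a3 at 96 bases before the start. The NFI site, found in 12.3%, was in that of S100b at 19 bases, where it overlapped a CCAAT box. The motifs searched also included a SOX site (ACAAAG, in 16.5% of all windows), found in Sox2, and a PBX-HOX site (TGATNNAT, in 7.68%), found in Gfap and not in the 4 windows printed. A match says only that these letters are present, and binding was not measured here. Of the 10 genes 8 had an entry in the table, Hes1 and Aqp4 had none, and the window of Vim was covered by annotated exons.

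In males no marker passed edgeR's quasi-likelihood test at an adjusted p of 0.05 (0 of 10), where 0.461% of the 18671 genes tested passed. At an unadjusted p under 0.05 there were 4 of 10, Nes, Fabp7, Slc1a3 and Aldh1l1, against 11.9% of all genes. The DESeq2 test called 2 of 10, Aldh1l1 (adjusted p = 0.0107) and Fabp7 (adjusted p = 0.0379), where it called 2.59% of all genes. Of the 10 genes 7 had a log2 fold change (KO over WT) below 0, with a median of -0.30, against a median of -0.01 over all genes tested. The KO libraries lay wholly below the WT libraries for 3 of 10, Fabp7, Aldh1l1 and Aqp4, where 8.44% of all genes did so, and wholly above them for 0 of 10, where 8.87% did.

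In females no marker passed edgeR's test (0 of 10), where 0.016% of the 18709 genes tested passed. At an unadjusted p under 0.05 there were also 0 of 10, against 7.47% of all genes, and DESeq2 called 0 of 10, where it called 0.957%. The genotypes overlapped for all 10 genes, where 6.24% of all genes were wholly lower and 7.57% wholly higher in KO libraries. The median log2 fold change was 0.09, with 3 of 10 below 0, against 0.01 over all genes.

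Over both sexes, in a fit across the 12 libraries with sex as a covariate, no marker passed (0 of 10), where 1.89% of the 19767 genes tested passed. Aldh1l1 alone had an unadjusted p under 0.05, which 13.7% of all genes had, and it was the only marker called by DESeq2 (1 of 10), which called 4.07% of all genes. The genotypes overlapped for all 10, where 1.24% of all genes were wholly lower in KO libraries and 0.562% wholly higher. The median was -0.04 against 0.002 over all genes.

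**Figure D2:**
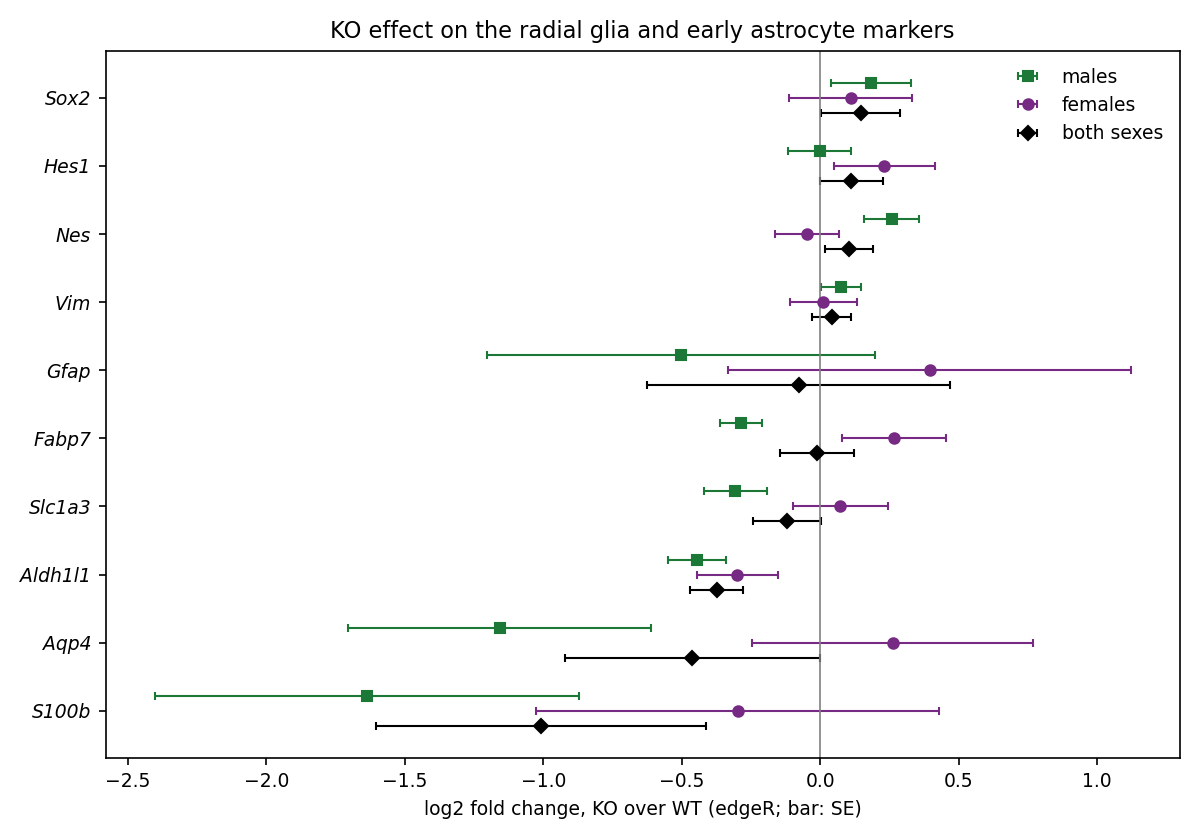
Log2 fold change of each marker, KO over WT (horizontal axis), in males, females and both sexes by edgeR, with bars for the SE. Aldh1l1 lay below 0 in all 3 fits (-0.44, -0.30 and -0.37), Fabp7 and Aqp4 were among the markers with opposite signs in the sexes, and the bars of Gfap, Aqp4 and S100b were the widest.

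The transcription factors of the stem state had small log2 fold changes beside their spread. Sox2, which keeps neural stem cells undifferentiated, was at 91.1, 71.0 and 87.6 CPM in the WT males and 112, 78.8 and 93.5 CPM in the KO males. In females it was at 61.4, 119 and 93.4 CPM in WT and 104, 87.0 and 105 CPM in KO libraries. The genotypes overlapped in both sexes, and the widest gap lay between WT female 1 and WT female 2. Its log2 fold change was 0.18 (adjusted p = 0.654, SE 0.144) in males, 0.11 (adjusted p = 0.934, SE 0.223) in females and 0.15 (adjusted p = 0.727, SE 0.143) over both. Hes1, a repressor that Notch switches on, ranged from 9.60 to 15.9 CPM over the 12 libraries. The log2 fold change of Hes1 was 0.00 (adjusted p = 0.998, SE 0.114) in males and 0.23 (adjusted p = 0.799, SE 0.182) in females.

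Among the intermediate filaments Nes and Vim were abundant. The SD of log2 CPM of Nes over the 12 libraries was above that of 38.0% of the genes tested. Nes, which encodes nestin of the radial fibres, was at 243, 191 and 209 CPM in the WT males and 271, 231 and 266 CPM in the KO males. A single KO male, KO male 2, lay under the highest WT male. Its log2 fold change was 0.26 in males (adjusted p = 0.372, SE 0.101). In males it was 0.08 after adjustment for the Hox gene level (adjusted p = 0.9996 by edgeR). In females the log2 fold change of Nes was -0.05 (adjusted p = 0.945, SE 0.116). Vim, which encodes vimentin, had a range of 382 to 482 CPM, and its SD of log2 CPM over the 12 libraries was above that of only 20.2% of the genes tested. Its log2 fold change was 0.07 (SE 0.0732) in males and 0.01 (SE 0.121) in females.

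Gfap, the filament protein of mature astrocytes, was at 0.107, 1.0 and 0.502 CPM in the WT males and 0.214, 0.553 and 0.377 CPM in the KO males. In females it was at 0.182, 0.321 and 0.488 CPM in WT and 0.520, 0.729 and 0.0746 CPM in KO libraries. The genotypes overlapped in both sexes, and the lowest value, 4 counts, was in KO female 3. Its log2 fold change of -0.50 in males (adjusted p = 0.820, SE 0.701) turned to 0.32 without WT male 2. After adjustment for the Hox gene level it was 0.71 in males (adjusted p = 0.9996 by edgeR).

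Fabp7, the brain lipid-binding protein of radial fibres, was separated by genotype in males and overlapped in females. In males it was at 255, 249 and 247 CPM in WT and 214, 219 and 183 CPM in KO libraries, and the genotypes did not overlap. The log2 fold change was -0.29 (adjusted p = 0.224 by edgeR, SE 0.0766). In females it was at 167, 167 and 274 CPM in WT and 237, 267 and 226 CPM in KO libraries, where WT female 3 lay above all KO libraries and the other WT females below them. The female log2 fold change was 0.27 (adjusted p = 0.777, SE 0.189), and 0.53 without WT female 3 (adjusted p = 0.0762). WT female 3 was the only WT female with at least 1 CPM of Hoxa5. After adjustment for the Hox gene level the log2 fold change was -0.22 in males (adjusted p = 0.9996 by edgeR) and 0.14 in females (adjusted p = 0.855). The difference of the KO effect between the sexes was -0.55 on the log2 scale (unadjusted p = 0.0298, adjusted p = 0.910, SE 0.224). It passed in 1 of 18 alternative settings, without WT female 3 (-0.83, adjusted p = 0.0474), where 0.0841% of all genes passed. No marker passed this interaction test with all libraries (0 of 10, where 0% of all genes did), Fabp7 alone had an unadjusted p under 0.05, which 4.45% of all genes had, and DESeq2 called 0 of 10 and 0.0253% of all genes.

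Slc1a3, the glutamate transporter GLAST, was at 161, 190 and 153 CPM in the WT males and 135, 154 and 119 CPM in the KO males. Only KO male 2 reached the WT range. The log2 fold change was -0.31 (adjusted p = 0.358, SE 0.113), and -0.15 after adjustment for the Hox gene level (adjusted p = 0.9996 by edgeR). In females Slc1a3 was at 133, 107 and 177 CPM in WT and 143, 164 and 131 CPM in KO libraries, with a log2 fold change of 0.07 (adjusted p = 0.945, SE 0.172). The WT females spanned the KO females.

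Aldh1l1, the folate enzyme used as a marker of the whole astrocyte lineage, was the marker nearest the threshold between genotypes. In males it was at 42.1, 48.0 and 37.9 CPM in WT and 30.6, 34.5 and 29.0 CPM in KO libraries. In females it was at 40.1, 32.8 and 45.9 CPM in WT and 32.9, 36.4 and 27.1 CPM in KO libraries. Over both sexes a single WT library, WT female 2, lay within the range of the KO libraries, and the other 5 lay above all 6 KO libraries. The log2 fold change was -0.37 over both sexes (unadjusted p = 0.00166, adjusted p = 0.0682 by edgeR, SE 0.0951), -0.44 in males (adjusted p = 0.153, SE 0.104) and -0.30 in females (adjusted p = 0.693, SE 0.145). The effects in the sexes differed by -0.15 (adjusted p = 0.933, SE 0.193).

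Over both sexes the log2 fold change of Aldh1l1 was below 0 in all 20 alternative settings, from -0.43 to -0.32. It passed in 4 of them: by DESeq2 (adjusted p = 0.00964), after adjustment for the Hox gene level (-0.36, adjusted p = 0.0491), without WT female 2 (-0.43, adjusted p = 0.0305) and without KO female 2 (-0.43, adjusted p = 0.0393). In these 4 settings 4.07%, 2.58%, 1.74% and 1.9% of all genes passed. In the other 16 the adjusted p was 0.0640 to 0.695. Within the 6 libraries with at least 1 CPM of Hoxa5 it was 43.9 ± 5.34 CPM in WT and 32.7 ± 4.92 CPM in KO libraries (SD, n = 3 per genotype), and within the other 6 it was 38.3 ± 4.90 and 30.8 ± 1.92 CPM (SD, n = 3 per genotype). Exons of Aldh1l1 (chromosome 6, 90486427 to 90600203 of GRCm38) overlap those of Gm15756 on the opposite strand and of Gm45901 on the same strand. The strand setting of the counting is not given in the sources used here, so reads of these genes may be among its counts.

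**Figure D3:**
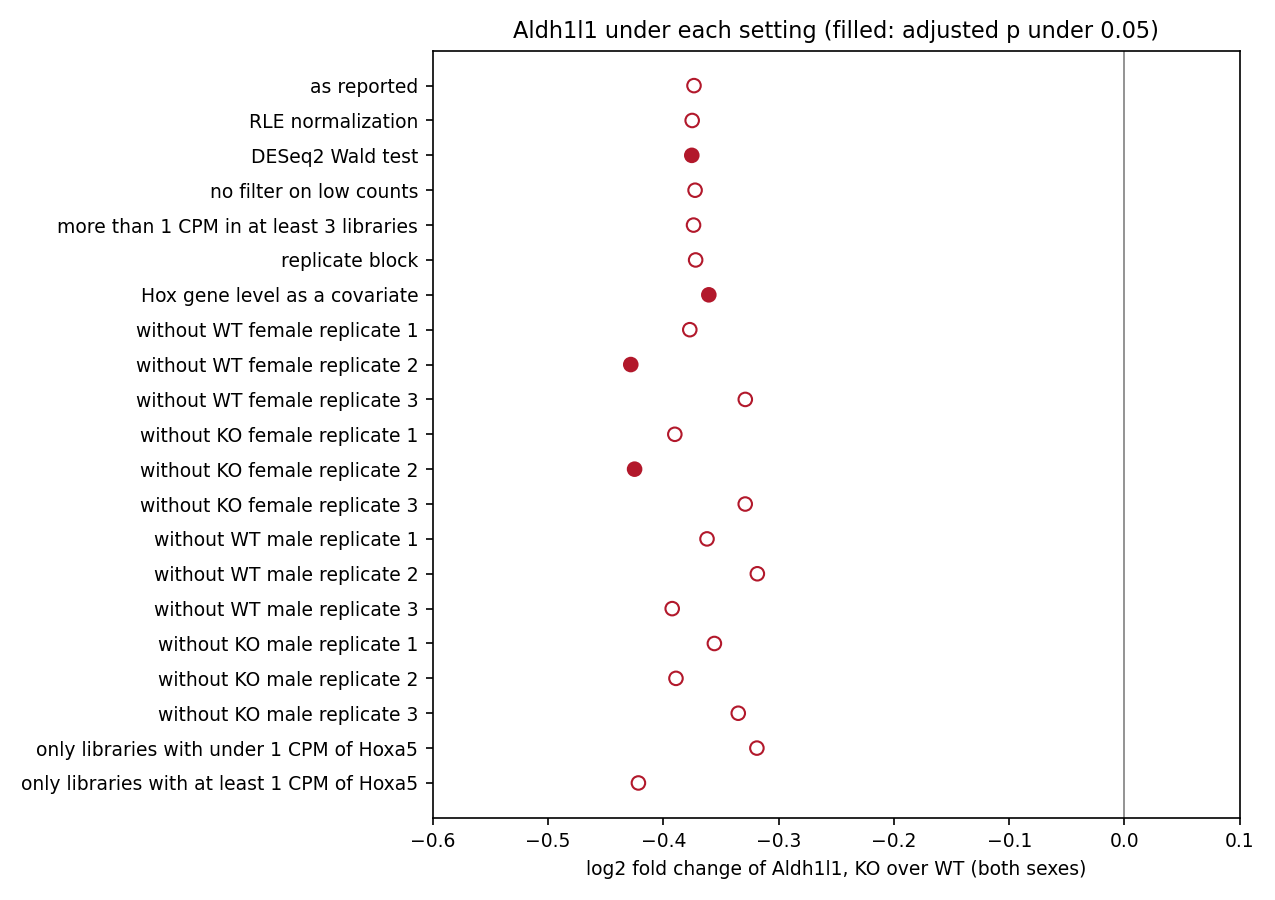
Log2 fold change of Aldh1l1 over both sexes, KO over WT (horizontal axis), as reported and under 20 alternative settings (vertical axis), filled where the adjusted p was under 0.05. All 21 points lie between -0.43 and -0.32, and 4 are filled.

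Aqp4 and S100b had the largest fold changes of the 10 markers in males, and with Gfap the largest SE. Aqp4, the water channel of astrocyte endfeet, was at 3.76, 10.6 and 4.48 CPM in the WT males and 3.58, 3.56 and 1.30 CPM in the KO males. The male genotypes did not overlap, but WT male 1 and KO male 1 were 3.76 and 3.58 CPM. The male log2 fold change was -1.16 (adjusted p = 0.468, SE 0.546), and -0.55 without WT male 2. After adjustment for the Hox gene level it was -0.36 (adjusted p = 0.9996 by edgeR). In females Aqp4 was at 2.31, 1.46 and 5.76 CPM in WT and 3.28, 5.55 and 2.57 CPM in KO libraries, with a log2 fold change of 0.26 (adjusted p = 0.930, SE 0.507). The female genotypes overlapped throughout.

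S100b, a calcium-binding protein of astrocytes and Schwann cells, was at 0.641, 3.16 and 0.807 CPM in the WT males and 0.481, 0.802 and 0.206 CPM in the KO males. WT male 2 stood above the rest, and KO male 2 lay between the other WT males. The male log2 fold change was -1.64 (adjusted p = 0.461, SE 0.767), and -0.55 without WT male 2. After adjustment for the Hox gene level it was -0.43 (adjusted p = 0.9996 by edgeR). In females S100b was at 0.381, 0.247 and 1.25 CPM in WT and 0.339, 0.988 and 0.224 CPM in KO libraries, a log2 fold change of -0.30 (adjusted p = 0.946, SE 0.727). The female genotypes overlapped.

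Values of lists of other cell types and regions stand beside these male values. All 10 genes of the Schwann cell and neural crest list and all 10 of the oligodendrocyte lineage list had male log2 fold changes below 0 (medians -1.15 and -0.55), where 51.2% of all genes tested did, and 0 and 1 of them passed edgeR's test. All 12 microglia genes were also below 0 (median -0.21) and all 10 forebrain genes above 0 (median 0.26), with 0 of either list passing. The summed level of the Schwann cell list was 139 to 230 CPM in WT and 134 to 171 CPM in KO males, and that of the oligodendrocyte list 180 to 267 and 146 to 167 CPM. The 16 Hox genes had male log2 fold changes below 0 in 16 of 16, with a summed level of 26.4 to 263 CPM in WT and 0.600 to 73.4 CPM in KO males. No gene of these lists was at 0 counts in every library, and their part in the result was not tested.

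The Hox gene level divided the libraries of each genotype evenly over both sexes but not within a sex. All 16 Hox genes had log2 fold changes below 0 in males (median -2.62) and above 0 in females (median 0.88), and 0 passed in either. Each marker was also fitted against the Hox gene level, as the mean log2 CPM of the 16 Hox genes, together with sex and genotype. No marker passed (0 of 10, where 1.69% of all genes did). At an unadjusted p under 0.05 there were 5 of 10, Nes, Fabp7, Slc1a3, Aqp4 and S100b, against 19.2% of all genes, and DESeq2 called 4 of 10, Nes, Fabp7, Slc1a3 and Aqp4, where it called 7.45% of all genes. The slope, in log2 CPM per unit of the Hox gene level, was 0.27 for S100b (adjusted p = 0.0639, SE 0.0686) and 0.20 for Aqp4 (adjusted p = 0.0720, SE 0.0517). It was 0.06 for Fabp7 (adjusted p = 0.0609, SE 0.0150), 0.05 for Slc1a3 (adjusted p = 0.0693, SE 0.0141) and -0.03 for Nes (adjusted p = 0.120, SE 0.0109). Aldh1l1 had a slope of 0.03 (adjusted p = 0.364, SE 0.0145).

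How many markers passed this fit changed most without KO female 3. It had 38.5 CPM of Hoxa5 but only 0.224 CPM of S100b, 2.57 CPM of Aqp4 and 0.0746 CPM of Gfap, the lowest Gfap of all libraries. Without it 5 of 10 markers passed, where 6.67% of all genes did, with adjusted p of 0.0133 for S100b, 0.0182 for Slc1a3, 0.0201 for Nes, 0.0214 for Aqp4 and 0.0279 for Fabp7 (edgeR). Without KO female 1 there were 3 of 10, where 3.25% of all genes passed. Without WT male 1 or WT male 3 there was 1 each, where 1.33% and 1.02% of all genes passed. In the 6 libraries with at least 1 CPM of Hoxa5, S100b was at 1.2 ± 1.02 CPM and Aqp4 at 5.41 ± 2.79 CPM, against 0.383 ± 0.160 and 2.61 ± 1.08 CPM in the other 6 (SD, n = 6 on each side). The ranges overlapped on both sides for all 10 markers, where 0.506% of all genes were wholly higher and 0.202% wholly lower in the former.

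**Figure D4:**
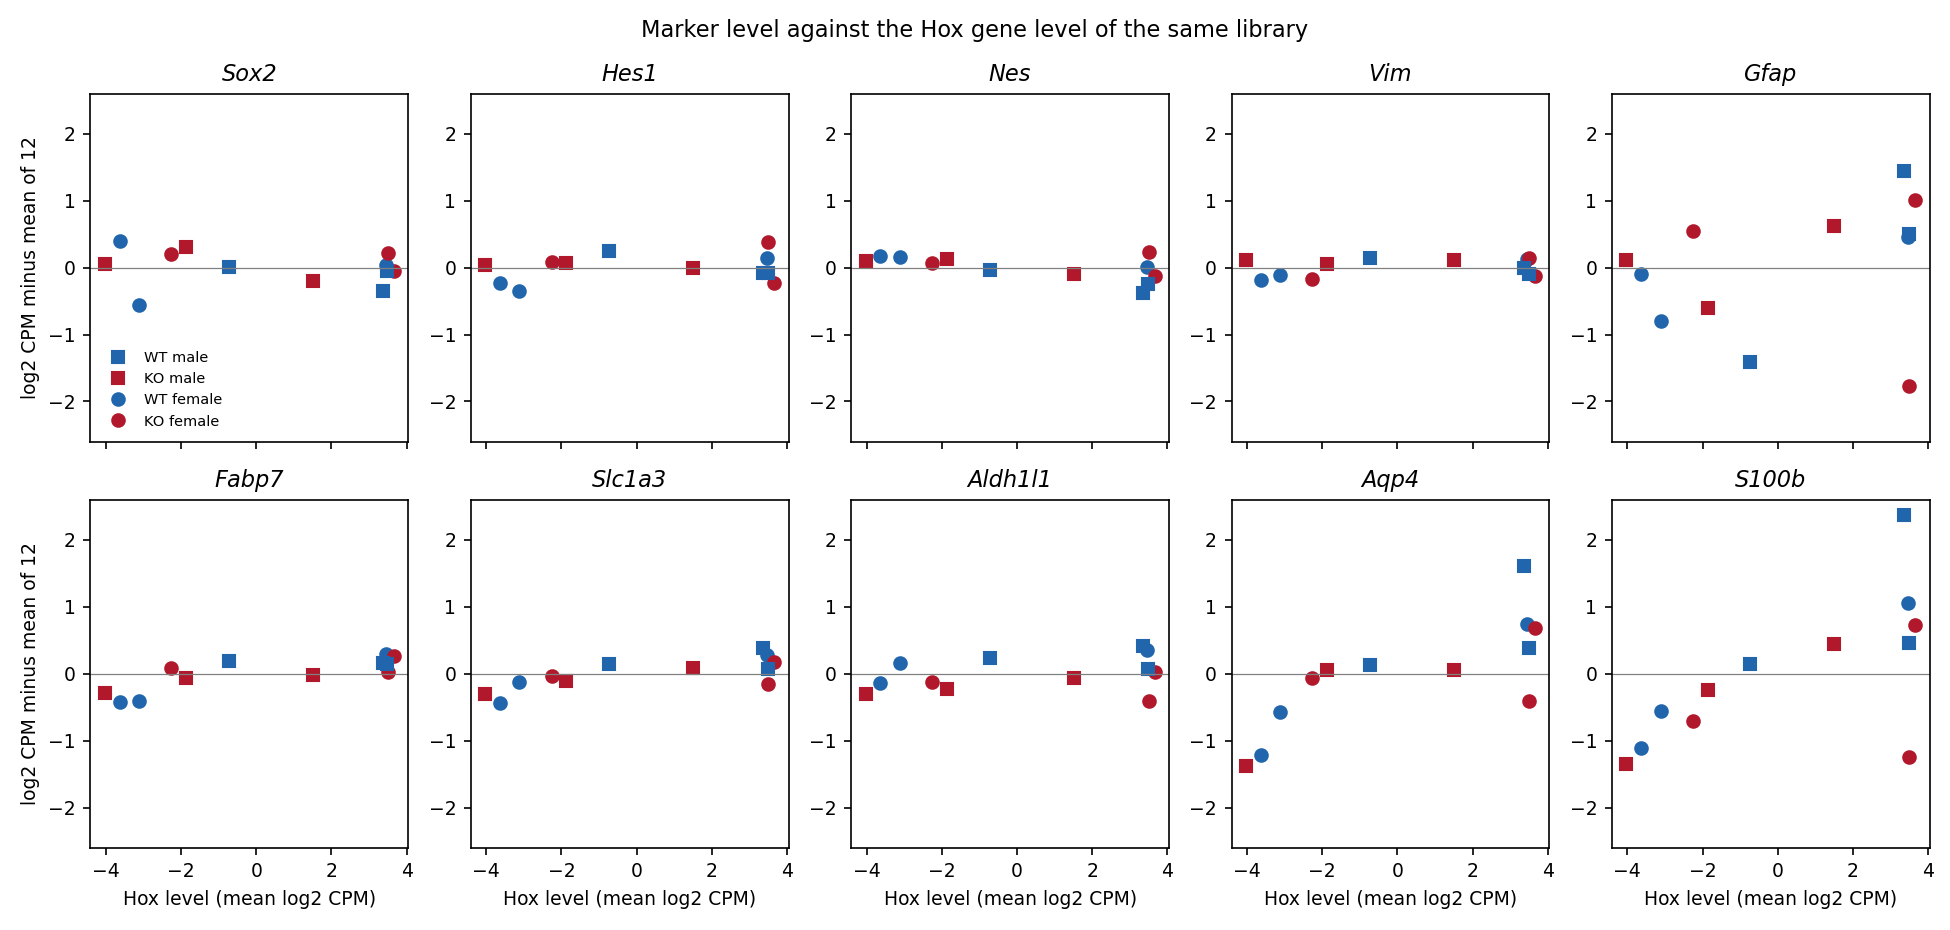
Log2 CPM of each marker minus its mean over the 12 libraries (vertical axis) against the mean log2 CPM of 16 Hox genes in the same library (horizontal axis). S100b and Aqp4 were higher towards the right, with slopes of 0.27 and 0.20, while KO female 3, at the right edge, lay low in both and in Gfap.

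No marker passed the comparison of male with female libraries (0 of 10 by edgeR, 0 at an unadjusted p under 0.05 and 0 by DESeq2), where 23.7%, 35.5% and 27.1% of all genes did. Nes had the smallest p, with a log2 fold change of -0.18 in males over females (adjusted p = 0.153, SE 0.0874). It passed without KO female 2 (-0.24, adjusted p = 0.0466), where 22% of all genes did. The RNA quality list holds mitochondrial RNAs, nuclear RNAs and mRNAs of immediate early and heat shock genes. The summed level of this list was 15973 to 19579 CPM in males and 25601 to 34939 CPM in females. Its part in these values was not tested.

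Genes of the same pathways were taken from lists. Of 34 other radial glia genes 0 passed edgeR's test between genotypes in males, in females or over both sexes, with medians of 0.03, 0.06 and 0.03. The most abundant, Cdh2, which encodes N-cadherin of the ventricular surface, had a log2 fold change of 0.05 over both sexes (SE 0.0624). Of 17 Notch pathway genes 0 passed in any of these fits, and Notch1 itself had 0.02 (SE 0.120). Of 37 other astrocyte genes 1 rose over both sexes and 0 fell, where 1.89% of all genes passed. It was Mt2, a metallothionein that binds metals, with a log2 fold change of 0.86 (adjusted p = 0.0269, SE 0.180), and its values were 0.67 (adjusted p = 0.252) in males and 1.06 (adjusted p = 0.447) in females. In males 31 of these 37 had a log2 fold change below 0, with a median of -0.22, and in females 20 of 36, with a median of -0.03, where 51.2% and 48.4% of all genes tested were below 0. The slope on the Hox gene level was above 0 for 34 of the 37, where 54.1% of all genes were. It passed for 3 of them, where 1.69% of all genes did. The part of the Hox gene level in the male values was not tested.

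Of 24 gliogenic factors, which drive the switch of radial glia from neurons to astrocytes, 2 fell over both sexes and 0 rose, where 1.89% of all genes passed in either direction. In males alone and in females alone 0 of the 24 passed, where 0.461% and 0.016% of all genes did. Jak1, the kinase that passes cytokine signals to STAT3, fell from a mean of 114 to 71.6 CPM, with a log2 fold change of -0.67 (adjusted p = 0.00147 by edgeR, SE 0.0880). Etv5, a transcription factor of FGF signalling, fell from 37.6 to 29.7 CPM, with a log2 fold change of -0.34 (adjusted p = 0.0137 by edgeR, SE 0.0632). The nuclear factors Nfib and Nfix, the most abundant of the list, had 0.12 (SE 0.0996) and 0.07 (SE 0.123). Of 12 other intermediate filament and lamin genes and of 20 relatives of the markers, such as Fabp5 and Slc1a2, 0 passed in any of the 3 fits.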

How the data were processed

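Per the study's methods and the submitters' processing notes, total RNA was depleted of ribosomal RNA with either of 2 kit versions, libraries were made with a directional kit, and sequencing was on HiSeq X (150 bp reads trimmed to 75 bp) or a NextSeq. Which library had which kit or sequencer is not given in the sources used here. The authors trimmed reads with cutadapt 2.6, aligned them to mm10 with HISAT2 2.1.0 and used StringTie 2.0.6 with Ensembl 81 transcripts to make the deposited gene counts, which are whole numbers without normalization, in 1 table for each sex.

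From these counts, genes were kept with edgeR's filterByExpr (at least 10 counts, at least 15 in total), scaled by TMM and tested with edgeR 4.0.16 in R 4.3.3 (robust quasi-likelihood fit, Benjamini-Hochberg adjustment over all genes, threshold 0.05). Nsd2 was left out of counts of genes. Log2 CPM used a prior count of 2. The genotypes were compared within each sex, over both sexes with sex as a covariate, and by an interaction term, and males with females. The alternatives were RLE normalization, DESeq2 1.42.0, no filter, more than 1 CPM in at least 3 libraries, the spread over all 12 libraries, a block for the replicate number, the Hox gene level as a covariate, subsets by Hoxa5 level and each library left out. Two-sided exact permutation tests compared library totals. Counts are not corrected for PCR copies. No 2 libraries of a group held identical counts, and their labels give only a number, so p-values measure the spread between these samples. The fits were tested on simulated counts in which known genes were changed.

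The 10 markers and 19 lists were chosen with earlier results of these data known. Named genes are all markers, up to 4 called genes of a list or else its 2 most abundant, Nsd2, Hoxa5, and for each marker the 2 genes most correlated with it. The last are not reported here for Hes1. The fit of the Hox gene level and the subset with at least 1 CPM of Hoxa5 were added after seeing the data. Positions came from GENCODE and promoters from RefSeq, and figures were drawn with Python 3.11.15 and matplotlib 3.10.9.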

Additional observations from a re-analysis of the deposited data

How the results depend on the processing

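Of 958 values of single markers under the alternatives, 935 stayed on the same side of the threshold and 23 newly passed it. No marker was called as reported, so none could lose a call, and 61 of these values had the other sign than as reported. The fit with the replicate number as a block called 289 genes in males against 86, with 1 marker, Aldh1l1 (adjusted p = 0.0303), and 0 genes in females against 3. Deviations of same-numbered libraries correlated at -0.0441 to 0.185 in males and -0.0519 to 0.195 in females. Those of differently numbered libraries correlated at -0.129 to 0.116 in males and -0.225 to 0.212 in females. So few correlations cannot show whether same-numbered samples belong together. The labels give only a number, so the samples were not treated as pairs. DESeq2 called 483 genes and 2 markers in males, 179 genes in females, 805 genes and 1 marker over both sexes against 374 genes, 5 genes in the interaction against 0, and 1472 genes and 4 markers for the slope on the Hox gene level against 334. Without a filter 6 genes passed in females and 213 for the slope. Adjusted for the Hox gene level, 22 genes passed in males and 1 in females. Over both sexes 1 marker passed with this adjustment, where 2.58% of all genes did. With the spread over all 12 libraries 41 genes passed in females, and over both sexes 37 genes passed among the 6 libraries low in Hoxa5 (under 1 CPM) and 11 among the 6 others. The cause of these differences was not tested.

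With each library left out in turn, the genes called numbered 21 to 113 in males, 0 to 38 in females, 200 to 383 over both sexes, 0 to 22 in the interaction and 67 to 1351 for the slope. The markers called numbered 0 to 1 over both sexes, in the interaction and between the sexes. Over both sexes it was Aldh1l1 without WT female 2 or KO female 2, where 1.74% and 1.9% of all genes passed. In the interaction it was Fabp7 (0.0841% of all genes) and between the sexes Nes (22%). For the slope they numbered 0 to 5, with 5 without KO female 3 (6.67% of all genes) and 3 without KO female 1 (3.25%). Without WT male 1 or WT male 3 there was 1 each (1.33% and 1.02%). Gfap rested on 4 to 60 counts in a library and S100b on 10 to 189.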

Other observations

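The genes whose log2 CPM followed 9 of the markers most closely over the 12 libraries were taken from 11928 or 11929 genes with a mean of at least 5 CPM. These correlations are descriptions over libraries that share sex, genotype and Hox gene level. For Sox2 they were Gm5607 (Pearson r = 0.970) and Insm1 (0.969), a transcription factor of intermediate progenitors. For Nes they were Arhgef2 (0.957) and Baz1b (0.954), and for Vim Derl2 (0.939) and Frmd8 (0.938). For Fabp7 they were Mtx2 (0.927) and Sptssa (0.925), and for Aldh1l1 Cdkl2 (0.957) and Tmem229a (0.953). For Slc1a3 they were Pla2g7 (0.954), itself on the list of radial glia genes, and Sgcb (0.950). Aqp4 was closest to Sgcb (0.954) and to the marker Slc1a3 (0.949), S100b to Cdh20 (0.978) and Smim17 (0.960), and Gfap to 5730409E04Rik (0.908) and Cntn6 (0.899).

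In 2 lists of other lineages a single gene passed over both sexes, where 1.89% of all genes did. Neurod4, a factor of intermediate progenitors, fell over both sexes from a mean of 4.43 to 1.59 CPM, with a log2 fold change of -1.50 (adjusted p = 0.000601 by edgeR, SE 0.176), and was the only 1 of 8 intermediate progenitor genes to pass. The other 7 had log2 fold changes above 0, and the median of the list was 0.16. Ugt8a, an enzyme of myelin lipid synthesis, fell from 5.74 to 2.19 CPM, with a log2 fold change of -1.40 (adjusted p = 0.000280 by edgeR, SE 0.148), and was the only 1 of 10 oligodendrocyte lineage genes to pass. The other 9 of that list had log2 fold changes below 0. Of 12 cell cycle genes, 12 neuron genes, 12 microglia genes, 10 endothelium genes, 11 pericyte and mesenchyme genes, 9 erythroid genes, 7 choroid plexus and ependyma genes and 10 forebrain genes, 0 passed in any of the 3 fits of genotype. Over both sexes all 12 cell cycle genes had log2 fold changes above 0 (median 0.12), where 50.7% of all genes did. So did all 7 choroid plexus and ependyma genes (median 0.20). In males 11 of the 12 cell cycle genes were above 0 (median 0.15) and in females 9 (median 0.08), against 48.8% and 51.6% of all genes.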
